A study of Mus musculus with 74 samples.

Results

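The retained contacts are 3584 long-range promoter contacts of HPC-7, a mouse haematopoietic progenitor line, that were listed in progenitors (HPC) and again in erythroid-induced cells with Stag2 knocked down (Ery shStag2), and were absent from erythroid-induced cells with the control hairpin (Ery Luc). They were chosen from 150733 distal contacts seen in any of 3 promoter capture Hi-C lists. A distal contact joined a captured fragment to a fragment that was captured in no list, on the same chromosome, with 50 kb to 1 Mb between the midpoints. A retained contact scored 6 or more in both the HPC and the Ery shStag2 list, and the identical fragment pair did not appear in the Ery Luc list. The lists hold no score below 5, so absence means that no score of 5 or more was given. The scores and the absence therefore chose the members, and their counts and scores are given below as descriptions.

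The HPC list came from cells that carried no hairpin and were grown with stem cell factor (SCF) at 100 ng/ul. Both Ery lists came from cells of the same line grown with SCF at 20 ng/ul and erythropoietin (EPO) at 4 U/l, with a doxycycline-inducible hairpin against luciferase (Luc, the control) or against Stag2. Doxycycline was given for 72 h, with 73 h in the label of 1 Ery Luc library. Each list pools 2 libraries of the 1 cell line, which leaves the differences between lists without replicates and without a test. The HPC list differs from both Ery lists in hairpin and doxycycline as well as in stage, and these cannot be told apart. The extent of Stag2 depletion in these libraries was not analysed here.

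Promoter capture Hi-C ligates DNA fragments that lie close together in the nucleus, here HindIII fragments, and enriches pairs with a promoter at one end. Cohesin is a ring complex that extrudes and holds chromatin loops, often between sites bound by CTCF, and Stag2 is one of its alternative subunits. Genes for cohesin subunits, STAG2 among them, are recurrently mutated in myeloid malignancies. EPO signals through its receptor, JAK2 and STAT5 in erythroid progenitors, and the change from progenitor to erythroid cell rewires many contacts between promoters and enhancers.

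The promoters below belong to captured fragments on which the results turn. Bcl2 and Foxo1 had 2 of the strongest retained contacts, and Hoxb8, Dse, Cdc16 and Tor4a had some of the highest numbers of them. Each run covers 250 bases before to 50 after the annotated start, from RefSeq on GRCm38.p6 (mm10), read 5′ to 3′ on the gene's strand. Capitals mark matches on either strand to any of 6 motifs. The motif of GATA factors was searched as AGATAA. The motif of ETS factors was searched as CCGGAAG. An E-box of the kind bound by Tal1 was searched as CAGCTG, and the CCAAT box by the letters of its name. The core of the CTCF motif and the site of the enzyme HindIII, which is AAGCTT, were searched too.
Bcl2, chr1:106714241-106714540, minus strand: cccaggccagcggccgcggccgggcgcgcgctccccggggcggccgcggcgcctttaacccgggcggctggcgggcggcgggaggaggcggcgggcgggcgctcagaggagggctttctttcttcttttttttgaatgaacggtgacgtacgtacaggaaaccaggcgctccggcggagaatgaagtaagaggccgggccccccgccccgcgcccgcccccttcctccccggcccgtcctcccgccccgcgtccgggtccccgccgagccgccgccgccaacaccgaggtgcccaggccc
Foxo1, chr3:52268087-52268386, plus strand: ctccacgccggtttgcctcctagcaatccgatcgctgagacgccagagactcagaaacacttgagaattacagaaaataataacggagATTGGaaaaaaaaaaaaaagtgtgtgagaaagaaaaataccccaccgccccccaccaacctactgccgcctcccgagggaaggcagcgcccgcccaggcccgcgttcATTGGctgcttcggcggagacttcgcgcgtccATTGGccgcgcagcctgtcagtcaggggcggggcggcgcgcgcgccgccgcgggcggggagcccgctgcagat
Hoxb8, chr11:96281655-96281954, plus strand: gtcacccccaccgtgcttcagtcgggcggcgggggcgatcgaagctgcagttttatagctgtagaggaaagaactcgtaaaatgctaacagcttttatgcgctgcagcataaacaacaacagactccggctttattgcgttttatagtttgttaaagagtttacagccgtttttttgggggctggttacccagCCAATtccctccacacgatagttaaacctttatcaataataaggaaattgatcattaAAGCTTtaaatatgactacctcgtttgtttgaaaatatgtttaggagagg
Dse, chr10:34207186-34207485, minus strand: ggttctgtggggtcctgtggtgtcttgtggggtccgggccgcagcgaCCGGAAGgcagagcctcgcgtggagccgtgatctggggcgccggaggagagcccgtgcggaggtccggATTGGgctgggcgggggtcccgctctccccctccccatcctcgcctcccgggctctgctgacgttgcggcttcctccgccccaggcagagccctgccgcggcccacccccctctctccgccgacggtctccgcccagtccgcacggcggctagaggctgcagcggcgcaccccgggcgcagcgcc
Cdc16, chr8:13757406-13757705, plus strand: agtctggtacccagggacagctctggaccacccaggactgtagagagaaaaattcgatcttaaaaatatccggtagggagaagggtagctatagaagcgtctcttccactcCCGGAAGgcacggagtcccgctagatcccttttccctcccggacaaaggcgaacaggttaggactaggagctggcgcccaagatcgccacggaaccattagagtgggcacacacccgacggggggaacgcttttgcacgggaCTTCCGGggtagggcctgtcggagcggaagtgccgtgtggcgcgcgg
Tor4a, chr2:25196764-25197063, minus strand: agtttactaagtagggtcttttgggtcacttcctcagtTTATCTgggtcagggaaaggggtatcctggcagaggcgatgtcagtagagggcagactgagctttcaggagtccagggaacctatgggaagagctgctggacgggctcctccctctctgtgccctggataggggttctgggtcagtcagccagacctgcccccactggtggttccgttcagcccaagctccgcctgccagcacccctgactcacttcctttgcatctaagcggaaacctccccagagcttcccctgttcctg
The Foxo1 promoter held 3 CCAAT boxes and the Cdc16 promoter 2 ETS motifs, while Dse held 1 ETS motif and 1 CCAAT box. The Tor4a promoter held 1 GATA motif, and none of the motifs was found in this window of Bcl2. The HindIII site of the Hoxb8 promoter begins at position 96281905, the annotated start of the gene and the last base of the captured fragment. Hoxb8 is therefore split, with its promoter on the fragment chr11:96278714-96281905 and the rest on the next captured fragment.

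The promoters on fragments with a retained contact held each motif about as often as the promoters they were drawn from. AGATAA was present in 7.99% of 1828 promoters on captured fragments with a retained contact (95% exact binomial interval 6.78 to 9.33%). It was present in 7.2% of the 3679 promoters on fragments with any distal contact scoring 6 or more in HPC and Ery shStag2, a group that includes the former, and in 9.65% of all 21263 protein-coding promoters. CCGGAAG was present in 15.7%, 15.5% and 11.6% of the same groups, CAGCTG in 16.2%, 16.1% and 15.6%, and CCAAT in 35.1%, 35.7% and 38.2%. The CTCF core was present in 4.92%, 5.19% and 4.12%, and the HindIII site in 4.16%, 3.83% and 6.69%. No 2 matches overlap in the printed windows, and a match is a run of letters, not a bound site.

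Of 19780 distal contacts that scored 6 or more in both HPC and Ery shStag2, 3584 (18.1%, 17.6 to 18.7%) were absent from Ery Luc. The mirror set gives the scale for this share. Of 19743 contacts that scored 6 or more in both HPC and Ery Luc, 3446 (17.5%, 16.9 to 18%) were absent from Ery shStag2. The intervals of the retained and the mirror share overlap. Of 21663 contacts that scored 6 or more in both Ery lists, 5501 (25.4%) were absent from HPC. Among the contacts of HPC and Ery shStag2 that were not retained, 14128 also scored 6 or more in Ery Luc and 2068 were listed there with a score of 5 to under 6. All intervals cover counting error only, since contacts that share a captured fragment or lie side by side are not independent.

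The lists differ in ways that touch these shares. HPC, Ery Luc and Ery shStag2 held 71835, 75773 and 81011 distal contacts, with a median distance of 187, 223 and 243 kb. Pairs between chromosomes made up 0.469% of the HPC list and 7.14% and 7.46% of the Ery Luc and Ery shStag2 lists. The part of these differences in the retained set was not tested.

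Retained contacts were mostly of modest score. In the HPC list they had a median score of 7.42 (quartiles 6.6 and 8.79, highest 19.24), and in the Ery shStag2 list a median of 7.24 (quartiles 6.52 and 8.46, highest 23.19). The lower of the 2 scores reached 7 in 1314 members (36.7%), 10 in 81 (2.26%), 12 in 12 and 15 in none.

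**Figure D1:**
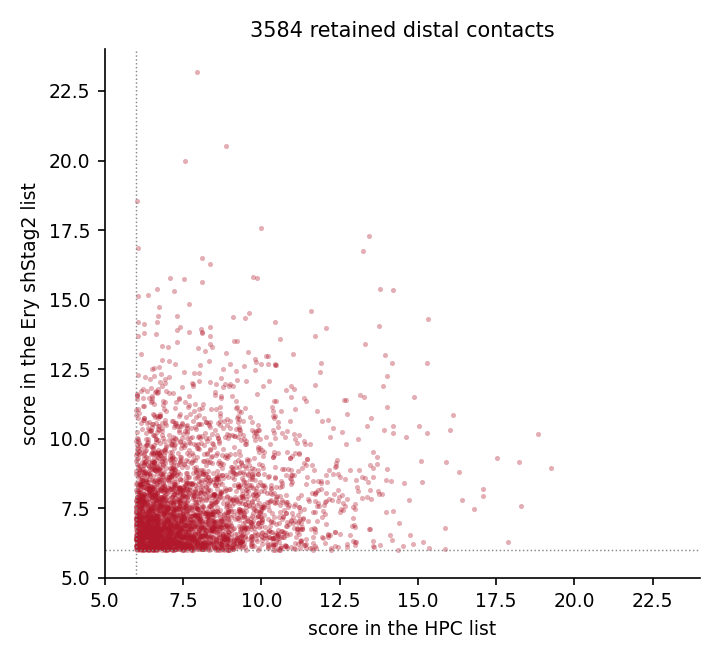
Score of each of the 3584 retained contacts in the HPC list (x axis) and in the Ery shStag2 list (y axis), 1 point per contact, with dotted lines at the threshold of 6. Points crowd near the threshold, and 81 contacts score 10 or more in both lists.

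The share absent from Ery Luc fell steeply with score. It was 31.4% of contacts whose lower score was 6 to 7, 12.8% at 8 to 9, 3.6% at 10 to 12 and 0.549% (12 of 2185) at 12 or more. In the mirror set the shares in the same bins were 30.7%, 10.5%, 3.16% and 0.382%. Contacts scoring 12 or more in HPC and in 1 Ery list were thus nearly always listed in the other Ery list, whichever it was. Contacts of HPC that were in neither Ery list do not enter these shares.

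Distance separated the retained set from its mirror. The share absent from Ery Luc was 13.7% (12.5 to 14.9%) at 50 to 100 kb, 15.9% at 100 to 200 kb, 18.5% at 200 to 300 kb, 23.1% at 300 to 500 kb and 26.6% (24.1 to 29.1%) at 500 kb to 1 Mb. The mirror share was 18.1% (16.9 to 19.4%) in the shortest bin and 15.8% (13.6 to 18.2%) in the longest, with values between 17% and 18% in the others. Contacts missing only from HPC rose from 14.6% to 47.4% over the same bins. The median distance of retained contacts was 220 kb (interval 215 to 226 kb, quartiles 138 and 348 kb). It was 180 kb in the mirror set, 259 kb for contacts missing only from HPC, 187 kb for those scoring 6 or more in all 3 lists and 186 kb for those scoring 6 or more in HPC and listed in neither Ery list. The Ery shStag2 list as a whole reached farther than the Ery Luc list, by the medians given above, and whether the retained set exceeds that was not tested.

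**Figure D2:**
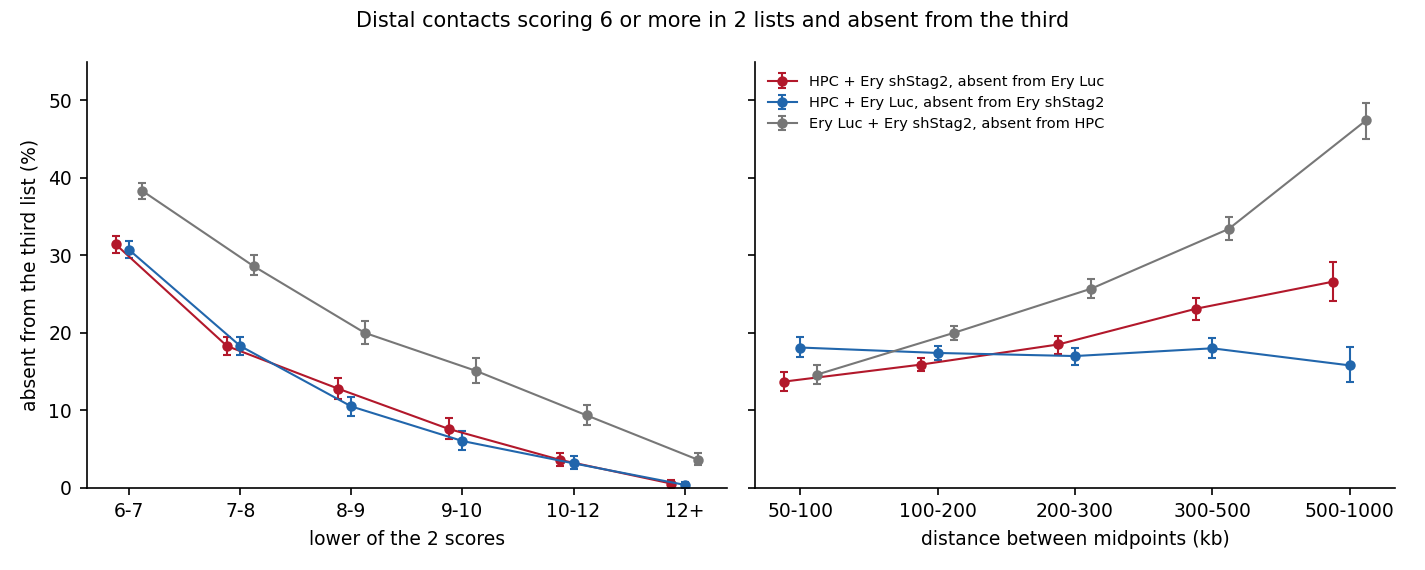
Share of distal contacts scoring 6 or more in 2 lists that was absent from the third (y axis, %), by the lower of the 2 scores (left) and by distance between midpoints in kb (right), with 95% exact binomial intervals as bars. The red and blue lines run together by score, and by distance the red line climbs from 13.7% to 26.6% while the blue line stays between 15.8% and 18.1%.

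The longest retained contact ran 999 kb from the fragment with Maip1 and Tyw5 into Bzw1, with scores of 6.9 in HPC and 6.24 in Ery shStag2. Contacts of Bhlhe22 (997 kb) and Rgma (987 kb) followed. Bhlhe22 encodes a neural basic helix-loop-helix factor, and Rgma a repulsive guidance molecule that is also a co-receptor for bone morphogenetic proteins. The shortest belonged to Pld2 (50.1 kb), the gene of a phospholipase D, to F11r (50.3 kb), the gene of a junctional adhesion molecule, and to Abcc1 (50.4 kb), the gene of a drug efflux transporter. At the score threshold, 352 members had a lower score of 6 to under 6.1, and 378 contacts that were absent from Ery Luc fell short of the rule with a lower score of 5.9 to under 6. Members at 6 included contacts of Ro60 and Uchl5, Swt1 and Trmt1l, and Rgs16. Contacts of Tram1, Atg4b and Thap4, and Lamc1 lay just outside at 5.99.

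The strongest member by its lower score ran from the captured fragment with Tmem150c (chr5:100074644-100078972), which holds no annotated start of a protein-coding gene. It reached a fragment 236 kb away outside any protein-coding gene (chr5:100312120-100313536), with scores of 15.3 in HPC and 14.3 in Ery shStag2. Second came Bcl2, the gene of the anti-apoptotic protein that guards mitochondria. Its captured fragment (chr1:106713507-106717411) met a fragment 286 kb away (chr1:106428999-106429187), outside any protein-coding gene. That contact scored 14.2 in HPC and 15.3 in Ery shStag2. The Bcl2 fragment did not lose the region in Ery Luc, where the nearest listed other end lay 1.44 kb away with a score of 9.12.

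Foxo1, the gene of a forkhead factor that restrains proliferation and is held out of the nucleus by AKT, had the longest of the 10 strongest contacts. Its fragment (chr3:52266637-52272771) reached 732 kb into Cog6 (chr3:53001023-53002978) and scored 15.3 in HPC and 12.7 in Ery shStag2. The fragment had 8 retained contacts of 17 scoring 6 or more in both lists, all between 566 and 732 kb away on the higher-coordinate side, beside 1 contact missing only from Ery shStag2. It had 26 distal contacts in HPC, 18 in Ery Luc and 33 in Ery shStag2. For 4 of the 8, no Ery Luc contact of Foxo1 was listed within 10 kb of the other end.

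The other contacts of the 10 strongest spanned 104 to 502 kb. The fragment with Nsmf and Pnpla7 scored 13.8 and 15.4, and that of Tram2 13.8 and 14.1, in HPC and Ery shStag2. Copa and Pex19, genes of a coatomer subunit and of a peroxisome import factor, shared a fragment whose contact scored 13.2 and 16.8. The contact of Hddc2 scored 14 and 13 at 502 kb, and that of Galnt2, the gene of an enzyme that starts O-glycosylation, 14.2 and 12.7. The fragments of Nsmf and Pnpla7, of Copa and Pex19 and of Galnt2 hold no annotated start of a protein-coding gene. Fam122b on chromosome X reached a fragment at an edge of Hprt, the purine salvage gene, with scores of 13.4 and 17.3. In all 10 the captured fragment had an Ery Luc contact within 7.16 kb of the other end, with scores between 5.49 and 12.21.

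That closeness was general. Of the 3584 retained contacts, 2864 (79.9%, 78.6 to 81.2%) had an Ery Luc contact of the same captured fragment within 10 kb of the other end, and 1907 of these nearest contacts scored 6 or more, with a median of 6.64 over the 2864. The share was 61.6% within 5 kb, 90.4% within 20 kb and 95.3% within 50 kb. In the mirror set, 77.8% had an Ery shStag2 contact within 10 kb. Only 33 retained contacts (0.921%) were on a captured fragment with no Ery Luc contact at all. The exact other end was listed in Ery Luc with another captured fragment for 2245 members (62.6%).

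The 720 retained contacts with no such neighbour lay on 622 captured fragments, and 3 of them had a lower score of 10 or more. These were named after their values were seen. Dcp1a, the gene of an mRNA decapping factor, reached 352 kb into Cacna1d with scores of 11.9 in HPC and 12.4 in Ery shStag2. Gpr132, the gene of a G protein-coupled receptor of blood cells, reached 122 kb into Brf1 with 11.4 and 11.3. Rwdd1 reached 328 kb into Nt5dc1 with 10.1 and 11.9. Their nearest Ery Luc contacts lay 11.4, 38.6 and 10.2 kb away. Rwdd1 and Dcp1a were thus just past the limit of 10 kb.

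Retained contacts were spread over many captured fragments. They lay on 2233 of the 4425 captured fragments that had a distal contact scoring 6 or more in HPC and Ery shStag2 (50.5%), and 1461 of these fragments had 1, 470 had 2 and 302 had 3 or more. An annotated start of a protein-coding gene was on 1398 of the 2233. Fragments with 5 or more numbered 64 and held 410 contacts. Of the 2233, 994 (44.5%) had fewer distal contacts in Ery Luc than in both other lists, beside 908 of 2230 (40.7%) for the mirror pattern. A contact scoring 6 or more in all 3 lists was present on 1507 of the 2233 (67.5%), beside 3447 of all 4425 fragments. A contact missing only from Ery shStag2 was present on 868 of the 2233 (38.9%). Many captured fragments with a retained contact thus had others that did not follow the pattern. Contacts in all 3 lists were no more common on them than over the 4425.

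The fragment with Lsr and Usf2 (chr7:30953618-30964247) had the most, 16 of its 38 contacts scoring 6 or more in HPC and Ery shStag2, beside 2 in the mirror direction. Lsr encodes the lipolysis-stimulated lipoprotein receptor, and Usf2 a basic helix-loop-helix factor that binds E-boxes. Neither gene has its annotated start on this fragment. The fragment had 80 distal contacts in HPC, 39 in Ery Luc and 70 in Ery shStag2. The 16 lay 54 to 352 kb away on both sides, 7 of them on the higher-coordinate side, with scores of 6.2 to 18.9 in HPC and 6.3 to 10.4 in Ery shStag2. One of them ended at Ffar3, another in Cd22, the gene of a B cell lectin, and 2 in Lgi4.

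Dse, the gene of dermatan sulfate epimerase, had 11 retained contacts of 19 scoring 6 or more in HPC and Ery shStag2. Of its 9 scoring 6 or more in HPC and Ery Luc, none was missing only from Ery shStag2. Its fragment (chr10:34198951-34209601) had 50 distal contacts in HPC, 22 in Ery Luc and 45 in Ery shStag2. The 11 lay 73 to 215 kb away, 3 of them in Trappc3l and 2 in Nt5dc1. Tspyl1, a neighbour on the same chromosome, had 9 retained contacts and 3 in the mirror direction, and 6 of the 9 ended inside Dse. Its distal contacts numbered 62, 51 and 64.

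Cdc16, the gene of a subunit of the anaphase-promoting complex, had 10 retained contacts of 23 scoring 6 or more in HPC and Ery shStag2. In the mirror direction it had 0 of 10. Its fragment (chr8:13753574-13760537) had 37 distal contacts in HPC, 16 in Ery Luc and 42 in Ery shStag2. All 10 lay on the lower-coordinate side at 67.7 to 186 kb, and 8 of them were inside Rasa3, the gene of a Ras and Rap GTPase-activating protein known for its role in platelets and erythroid cells. For 5 of the 10, no Ery Luc contact of Cdc16 lay within 10 kb, and for the 3 other ends nearest to Cdc16 the closest was 69.1 to 85.7 kb away.

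**Figure D3:**
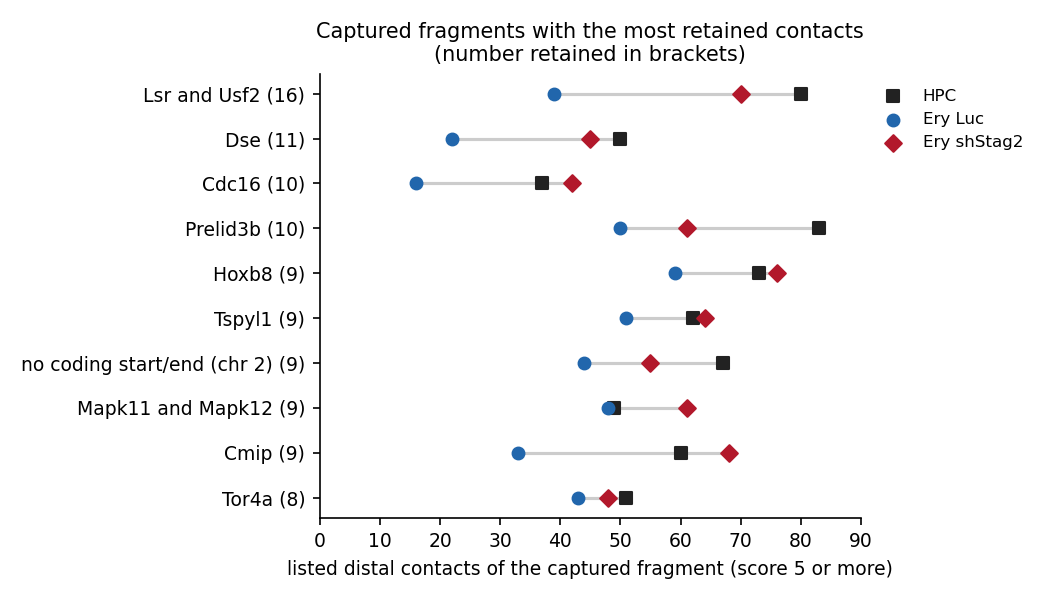
Number of listed distal contacts (x axis) of the 10 captured fragments with the most retained contacts, with HPC as squares, Ery Luc as circles and Ery shStag2 as diamonds, and the number retained in brackets. The Ery Luc circle lies lowest in every row, and in the row of Mapk11 and Mapk12 it is 48 beside 49 in HPC.

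Prelid3b, the gene of a mitochondrial lipid transfer protein, had 10 retained contacts and 3 in the mirror direction, with 83 distal contacts in HPC, 50 in Ery Luc and 61 in Ery shStag2. Of its 10, 2 ended in Gnas, the imprinted gene of a G protein subunit, and 1 in Edn3. A captured fragment that holds no start or end of a protein-coding gene (chr2:116923310-116925314) had 9, of which 2 ended inside Spred1, the gene of an inhibitor of Ras signalling. Cmip had 9 retained and 1 mirror contact, with 60, 33 and 68 distal contacts, and 3 of the 9 ended in Plcg2, the gene of a phospholipase of immune receptor signalling. The fragment with Mapk11 and Mapk12, genes of p38 kinases, had 9 retained and 2 mirror contacts. Tor4a had 8 and 3, all 8 on the lower-coordinate side, with 51, 43 and 48 distal contacts. The fragments chosen for most retained contacts had to be low in Ery Luc, so these numbers describe the choice. The highest number in the mirror direction was 12, at Ikzf2, with 93, 84 and 75 distal contacts.

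A local group of retained contacts lay at the Hoxb cluster on chromosome 11, which was singled out after its values were seen. Hox genes encode homeodomain factors, and the members expressed in blood progenitors are switched off as cells differentiate. Captured fragments of the cluster (chr11:96194316-96368254) had 36 retained contacts of 124 scoring 6 or more in HPC and Ery shStag2 (29%, 21.2 to 37.9%), beside 11 of 99 in the mirror direction (11.1%, 5.68 to 19%). Their distal contacts numbered 260 in HPC, 195 in Ery Luc and 265 in Ery shStag2. All 36 ran to the higher-coordinate side, and 35 ended inside Skap1 (chr11:96464570-96759622), the neighbouring gene of an adaptor of T cell receptor signalling.

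The direction was not particular to the retained contacts. Of the 124 contacts scoring 6 or more in HPC and Ery shStag2, 115 (92.7%) ended in Skap1, and of the listed distal contacts of the cluster 88.1% did in HPC, 88.2% in Ery Luc and 84.5% in Ery shStag2. For 33 of the 36, an Ery Luc contact of the same Hoxb fragment lay within 10 kb of the other end.

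The promoter fragment of Hoxb8, whose HindIII boundary is printed above, had 9 retained contacts and 1 mirror contact, with 73 distal contacts in HPC, 59 in Ery Luc and 76 in Ery shStag2. The 9 lay 245 to 449 kb away, with scores of 7.47 to 14.2 in HPC and 6.6 to 11.4 in Ery shStag2. Its strongest retained contact (chr11:96644289-96647350) scored 12.7 and 11.4. The next fragment, with Hoxb7 and the rest of Hoxb8, had 8 retained contacts and 3 mirror contacts. That of Hoxb9 had 8 retained and 4 mirror contacts. A captured fragment at chr11:96263625-96268694 holds Mir196a-1 but no start or end of a protein-coding gene. Of its 10 contacts scoring 6 or more in HPC and Ery shStag2, 7 were retained, beside 3 of 7 in the mirror direction. Hoxb6 had 2 retained contacts, the fragment of Hoxb3 and Hoxb5 had 1, and Hoxb1 had 1, and none of these had a mirror contact.

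**Figure D4:**
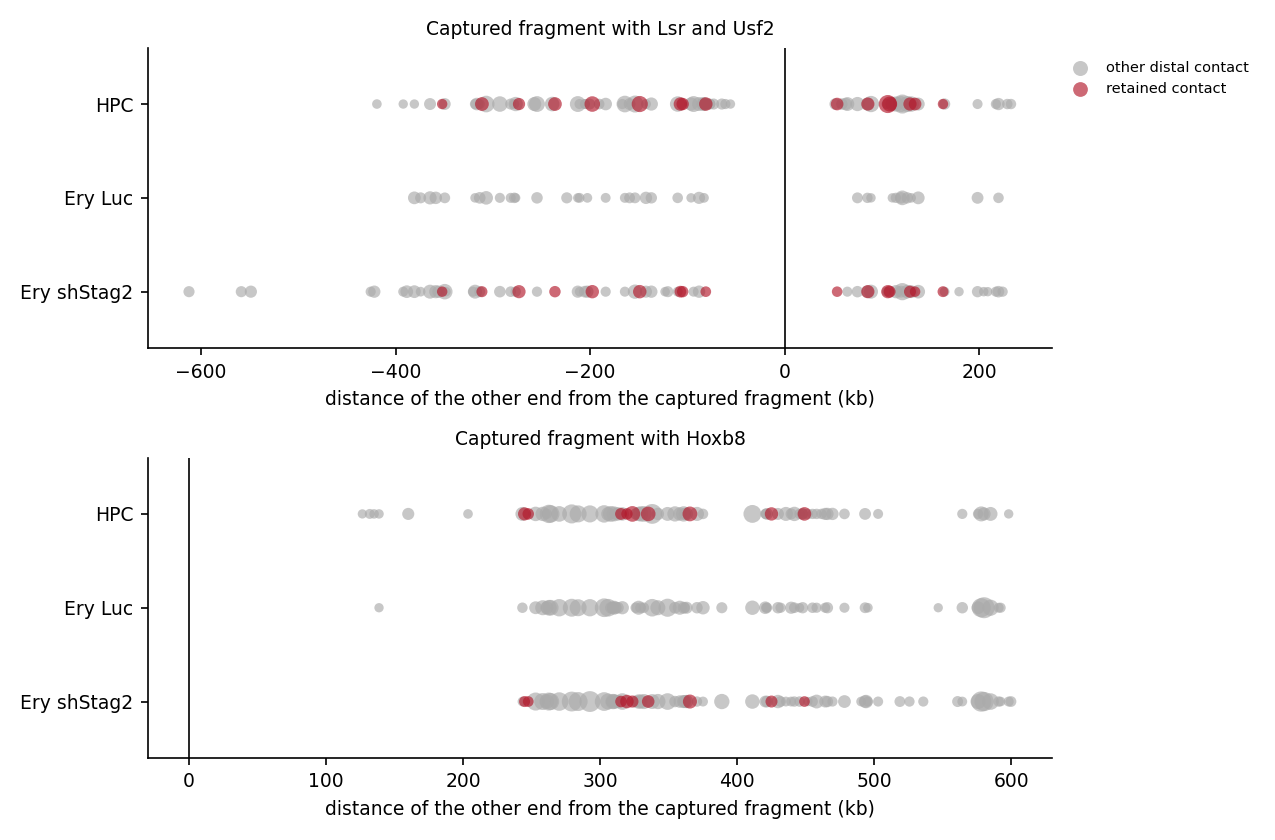
Distal contacts of the captured fragments with Lsr and Usf2 (top) and with Hoxb8 (bottom) in each list, placed by the distance of the other end in kb (x axis, positive towards higher coordinates), with marker area proportional to score and retained contacts in red. The 16 red points of Lsr and Usf2 fall on both sides of the captured fragment, and the 9 of Hoxb8 all lie at 245 to 449 kb on 1 side.

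The other Hox clusters had fewer. Hoxa had 5 of 19 (26.3%, 9.15 to 51.2%), all at Hoxa6, beside 0 of 14 in the mirror direction, and 3 of the 5 ended in Skap2, a paralogue of Skap1. Hoxc had 8 of 61 beside 9 of 62, and Hoxd 9 of 53 beside 9 of 52. Hoxd3 had 5 retained contacts, 352 to 890 kb away. Over all captured fragments that hold a start or end of a Hox gene, 51 of 243 contacts (21%, 16 to 26.7%) were retained and 25 of 217 (11.5%, 7.6 to 16.5%) were missing only from Ery shStag2.

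Retained contacts were also numerous in a few other regions, again picked after the values were seen. The regions were ranked by count, so those with many contacts to judge come first. Over all contacts, 18.1% were retained and 17.5% were missing only from Ery shStag2. In windows of 500 kb by the captured fragment, chromosome 2 from 25 to 25.5 Mb had the most. It had 40 of 130 (30.8%) beside 16 of 104 (15.4%) in the mirror direction. It holds Tor4a, Nsmf and Pnpla7. The window of Lsr and Usf2 on chromosome 7 had 39 of 196 (19.9%), near the share over all contacts, beside 18 of 158 (11.4%). That of Dse, Tspyl1 and Rwdd1 on chromosome 10 had 33 of 137 (24.1%) beside 5 of 97 (5.15%). The 6 fullest windows held 189 retained contacts, 5.27% of all, out of 1232 windows with a retained contact.

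Gene lists were compared with all captured fragments. Over all captured fragments, 18.1% of contacts were retained and 17.5% were missing only from Ery shStag2. Each list below is given by its count. Medians per captured fragment cover only fragments with a distal contact reaching the score threshold in both HPC and Ery shStag2. The median number retained was 1, as over all such fragments, except for the myeloid, cohesin and ribosomal lists with a median of 0. In the progenitor list 16 of 140 contacts (11.4%, 6.68 to 17.9%) were retained and 29 of 160 (18.1%) were missing only from Ery shStag2. Ikzf2, the gene of the Helios factor, had 4 retained contacts beside 12 in the mirror direction. Hlf and Sox4, both genes of progenitor transcription factors, had 2 each, and Mycn had 1. In the mirror direction Hlf had 1, Sox4 0 and Mycn 1.

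In the erythroid list 12 of 101 contacts (11.9%, 6.29 to 19.8%) were retained, beside 9 of 100 (9%), and the first interval includes the 18.1% over all fragments. This share turned with the naming of fragments. Where only fragments with an annotated gene start counted, it was 7 of 19 (36.8%, 16.3 to 61.6%), beside 4 of 16 (25%). The fragment of Car2, which gave 50 of the 101 contacts, was then left out. Only 3 fragments had a contact to judge, and 2 of them, those of Trim10 and Epor, gave all 7 retained contacts. Trim10, a gene of terminal erythroid differentiation, had 5 of 11 beside 2 of 8 in the mirror direction. Of its 5 retained contacts, 2 ended in Gabbr1, and those at 172 and 173 kb ended on adjoining fragments, so they are not independent. Its distal contacts numbered 22 in HPC, 14 in Ery Luc and 20 in Ery shStag2. Car2, the gene of carbonic anhydrase, had 3 of 50 beside 1 of 45, and its 3 retained contacts lay on the higher-coordinate side. Its strongest scored 9.22 in HPC and 12.1 in Ery shStag2. Epor, the gene of the EPO receptor, had 2 of 5 beside 1 of 4. Hemgn had 1 of 5 beside 1 of 6, on a fragment that holds the start of Trmo and not of Hemgn.

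In the heme and iron list, 17 of 71 contacts were retained (23.9%, 14.6 to 35.5%), beside 9 of 69 in the mirror direction (13%, 6.14 to 23.3%), and these intervals overlap. By gene starts alone it was 11 of 33 (33.3%, 18 to 51.8%), beside 6 of 31 (19.4%, 7.45 to 37.5%). Alad, whose enzyme joins aminolevulinic acid to porphobilinogen, had 7 of 40 beside 3 of 41 over both of its captured fragments. The Alad fragment with 5 of these 7 gave 35 of the 71 contacts of the list and holds no annotated start of a protein-coding gene. Ppox, the gene of protoporphyrinogen oxidase, had 4 of 7 beside 0 of 3 in the mirror direction. Its distal contacts numbered 17 in HPC, 10 in Ery Luc and 19 in Ery shStag2. The 4 contacts of Ppox lay 148 to 158 kb away on adjoining fragments in Cfap126 and Sdhc, so they are not independent. Fth1, the ferritin heavy chain, and Aco1, the iron-sensing aconitase, had 2 each. In the mirror direction Fth1 had 0 and Aco1 1. A retained contact of Aco1 scored 8.1 in HPC and 16.5 in Ery shStag2.

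The cytokine signalling list had 14 of 103 (13.6%, 7.63 to 21.8%), beside 9 of 97 (9.28%). Dusp6, which removes phosphate from ERK kinases, had 4 of 8 beside 2 of 4 in the mirror direction. Of its 4 retained contacts, 3 ended in Poc1b, 84.1 to 95.7 kb away on neighbouring fragments, so they are not independent. Cish, a STAT5 target that damps cytokine signals, had 3 of 7 beside 0 of 3. Bcl2 and Spred1 had 2 each, of 17 and 44, beside 1 each, of 16 and 44. The immediate-early list had 13 of 102 (12.7%), beside 14 of 100. Jun, a subunit of AP-1, had 3 of 13, all 825 to 874 kb away in Fggy, and Fosl2, another AP-1 gene, had 3 of 47. The strongest Jun contact scored 10.4 in HPC and 12.7 in Ery shStag2. In the mirror direction Jun had 1 of 11 and Fosl2 2 of 43. Btg1 had 2 of 6 retained beside 4 of 8 in the mirror direction, and Dusp1 2 of 4 beside 0 of 2.

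**Figure D5:**
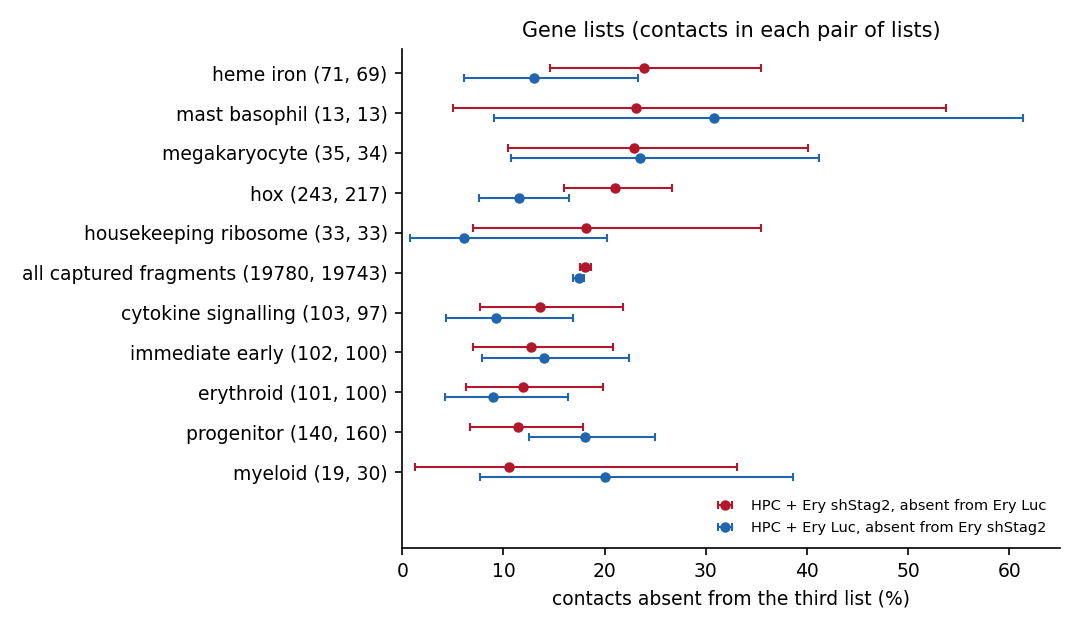
Share of contacts absent from the third list (x axis, %) for gene lists with at least 10 contacts in each pair of lists, with 95% exact binomial intervals and the 2 denominators in brackets. Red is the retained share and blue the mirror share, and the intervals of both overlap in every gene list but are far wider than for all captured fragments.

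Markers of other blood lineages had few contacts to judge. The megakaryocyte list had 8 of 35, beside 8 of 34. Selp and Gp1bb, genes of platelet P-selectin and of a von Willebrand factor receptor subunit, had 2 each. Gp1bb also had 2 in the mirror direction, and Selp had none. The retained contacts of Selp lay on a fragment that holds the start of F5 and not of Selp. Selp had 39 distal contacts in HPC, 2 in Ery Luc and 5 in Ery shStag2 over its captured fragments, so most of its progenitor contacts were in neither Ery list. The mast cell and basophil list had 3 of 13, at Gata2, Fcer1g and Hpgds, beside 4 of 13, with 2 each at Gata2 and Fcer1g. The lymphoid list had 2 of 9, at Cd4 and Cd2, beside 0 of 6. Neither of these fragments holds the start of the named gene, and that of Cd4 holds the start of P3h3. The myeloid list had 2 of 19, at Id2 and Itgam, beside 6 of 30. Id2, the gene of an inhibitor of basic helix-loop-helix factors, scored 9.74 in HPC and 15.8 in Ery shStag2 for a fragment 979 kb away. Of the genes for cohesin and its cofactors, Esco1, a cohesin acetyltransferase, had 1 of the list's 6, beside 3 of 6 in the mirror direction. Ribosomal protein genes had 6 of 33, beside 2 of 33. By gene starts alone, 4 of 11 were retained in the mast cell and basophil list and 2 of 9 in the myeloid list. The cohesin list gave 0 of 5. The lymphoid list then had no contact scoring 6 or more in HPC and Ery shStag2.

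Few of the distant ends of retained contacts carried an edge of a protein-coding gene. The rule admitted no other end captured in any list, and capture enriches promoters, so a low share partly follows from the choice of members. Of 3584, 236 (6.58%) ended on a fragment with a start or end of a protein-coding gene, 2045 (57.1%) within the body of such a gene and 1303 (36.4%) in none. The mirror set gave 7.57%, 59.3% and 33.2%. A start or end of a non-coding gene was on 199 of them (5.55%). They were on the higher-coordinate side in 1871 (52.2%). The captured fragments held a start or end of 2113 protein-coding genes, 1564 of them by their start.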

How the data were processed

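Promoter capture Hi-C lists were analysed for HPC, Ery Luc and Ery shStag2. Per the labels' protocols, HindIII cut the cross-linked chromatin and beads pulled down promoters. The deposited lists give pairs of mm10 fragments (build per the submitters' processing notes) with the authors' score, and each pools 2 libraries. No source used here gives the scoring software or the depth, and scores were used only to rank or filter contacts. RNA-seq was not analysed here, since no table used here pairs the transcript identifiers with genes. ChIP-seq samples were not analysed here.

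Contacts were matched by identical fragments in Python 3.11.15 with pandas 2.3.3 and SciPy 1.17.1, and the matching was tested on simulated data. Fragments were named by protein-coding genes of RefSeq GRCm38.p6 with a start or end on them, so a named gene need not have its start there. Medians and shares carry 95% intervals for counting error only. Distances run between midpoints, and coordinates are 1-based. The members and gene lists were chosen with earlier results of these data known. Named were the 10 fragments with the most retained contacts, the 10 strongest contacts by lower score, up to 4 genes per list, the 3 longest and 3 shortest contacts, and 3 on each side of the score threshold. Genes named beyond this rule were chosen after their values were seen. Of the contacts this rule names, 1 is not reported here.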

Additional observations from a re-analysis of the deposited data

How the results depend on the processing

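The number of retained contacts rested on the score threshold and on what counts as absent. It was 9369 at a score of at least 5, 1314 at 7 and 81 at 10, and 720 where Ery Luc contacts of the same captured fragment within 10 kb of the other end also counted as present. Starting at 100 kb gave 3132, and excluding only ends captured in the same list gave 3593. The share absent from Ery Luc was 28.7% at a score of at least 5, 10.5% at 7, 1.98% at 10 and 3.64% with the 10 kb rule. The mirror share moved with it, to 28.8%, 9.75% and 1.69% at 5, 7 and 10. The median distance was 206 kb at 5, 227 kb at 7 and 275 kb at 10. Gene starts alone gave 1564 genes. The shares at 50 to 100 kb and at 500 kb to 1 Mb were 25.1% and 35.9% at 5 and 7.44% and 18.3% at 7, a comparison added after seeing the data, so the longer bin was higher at each. The 10 fullest fragments held 10 to 24 retained contacts at 5, 2 to 11 at 7 and 0 to 3 at 10. No paired analysis was possible because each list pools its libraries. Alternatives for transcript levels were not run. The read depth is unknown, so a contact absent from a list may lie just under its limit of 5: among contacts scoring 6 or more in HPC and Ery shStag2, 163 had an Ery Luc score under 5.1.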

Other observations

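A few distant fragments were met by several captured fragments. Of the 3419 other ends of retained contacts, 3266 were met by 1 captured fragment, 144 by 2, 6 by 3 and 3 by 4. A fragment in Gabbr1 (chr17:37053481-37061122) was met by the fragments with Trim10 and Trim15 and with Znrd1 and Znrd1as and by 2 fragments with no protein-coding start or end. A fragment in Asrgl1 (chr19:9108483-9115565) was met from Slc3a2, from 1810009A15Rik, from Ganab and Ints5, and from Mta2 and Tut1. A fragment outside any protein-coding gene next to the captured fragment of Tor4a (chr2:25189759-25191475) was met from Zmynd19, from Nsmf and Pnpla7 and from 2 fragments with no protein-coding start or end. Ery Luc listed 4, 7 and 16 contacts of these 3 ends with other captured fragments.

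By chromosome, the retained share ran above the mirror share on chromosome 9, with 18.5% (16.2 to 20.9%) beside 11.3% (9.41 to 13.5%), on chromosome 2 with 21% beside 15.6% and on chromosome 10 with 20.5% beside 14.5%. It also ran above on chromosomes 17 (15.1% beside 12.4%), 8 (17.7% beside 14.9%) and 6 (20.4% beside 18.2%), where the intervals overlap. Chromosomes 18 (22.9% beside 20.9%) and 15 (16.9% beside 15.1%) went the same way, also with overlapping intervals. The retained share ran below the mirror share on chromosome 16, with 16.9% (13.3 to 20.9%) beside 21.9% (18 to 26.1%). The same held on chromosome 4 (17.7% beside 21.4%), chromosome 3 (19.6% beside 22.7%) and chromosome 7 (17.7% beside 20.6%). Chromosome 12 had 13.1% beside 16%, chromosome 14 had 20.7% beside 23.4%, and chromosome X 16% beside 18.8%. The 2 intervals overlap on each chromosome named as running below, and do not overlap on chromosomes 9, 2 and 10. They cover counting error only, and chromosomes 2 and 10 hold the windows of Tor4a and of Dse described above. These chromosomes were picked after their values were seen.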
